A study of Mus musculus with 30 samples.

Results

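Cpt1a delivered to the unstressed mouse heart by a viral vector was examined by comparing 4 heart libraries of vector-treated mice with 3 of saline-treated mice, all after sham surgery. These 7 libraries were chosen by their column labels and belong to a series of 30 libraries. Both groups were C57Bl/6 mice whose hearts were collected 8 weeks after sham surgery. PBS_sham mice received phosphate-buffered saline. AAV_sham mice received AAV9, a viral vector that reaches the heart, carrying Cpt1a in a construct that the series description writes as AAV9.cTNTN.Cpt1a (cTNT is the usual short form of the cardiac troponin T promoter, which is active in heart muscle cells). The controls received no empty vector, so effects of the virus and of Cpt1a cannot be told apart. Vector dose and the interval between injection and surgery are not given in the labels. A second pair of groups, AAV_TAC (4 libraries) and PBS_TAC (3 libraries), received the same injections and then transverse aortic constriction (TAC), which raises the pressure load. They share no library with the sham groups and stand beside them below. The study's stated interest is the role of more Cpt1a under pathological stress, and the sham comparison shows the vector without added load.

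Carnitine palmitoyltransferase 1 sits in the outer mitochondrial membrane and joins long-chain fatty acids to carnitine. The carrier Slc25a20 moves the product across the inner membrane and Cpt2 releases the fatty acid for beta-oxidation. Malonyl-CoA, made by Acaca and Acacb and removed by Mlycd, inhibits the enzyme. Adult heart muscle mainly uses the Cpt1b form, while Cpt1a is the form of liver and of fetal heart.

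Poly(A) RNA was counted per gene, with 16625542 to 19964224 counts per library. Levels are given as CPM, each gene's count relative to the library total after scaling with the TMM factors of edgeR. Changes are log2 fold changes of AAV_sham relative to PBS_sham with their standard error (SE), and a gene was called at an adjusted p under 0.05. The labels do not say whether libraries of a group came from separate animals, so p-values measure only the spread between these samples.

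The library PBS_sham 3 stood apart from the other 13 libraries of the vector experiment. Its summed level of 10 cardiomyocyte markers was 27022 CPM, against 64102 to 83136 CPM in the other 13. Its 6 smooth muscle markers summed to 1953 CPM, against 287.5 to 504.6 CPM elsewhere, and its endothelial markers to 3100 CPM, against 1406 to 1770 CPM. Acta2 and Myh11 were the largest parts of the smooth muscle sum, at 909 and 663.1 CPM. Myocd went the other way, at 14.3 CPM against 23.9 to 26.3 CPM in the other sham libraries. Smtn, at 234 CPM, lay inside the range of those libraries. PBS_sham 2 had the highest adipocyte sum, 434 CPM, and PBS_sham 3 the next, 206.8 CPM, while PBS_sham 1 had 20.2 CPM and the AAV_sham libraries 0 to 16.8 CPM. Mesothelial markers summed to 298 CPM in PBS_sham 2 and 173.7 CPM in PBS_sham 3, against 12.2 to 45.7 CPM in the other 5 sham libraries. Atrial markers were highest in PBS_sham 2 (8418 CPM) and AAV_sham 2 (6305 CPM), against 556.1 to 1690 CPM in the other 5. Hepatocyte and lung epithelium markers summed to under 1 CPM in every sham library. Cardiomyocyte markers were abundant in all 7 libraries, as the heart label states, though lower in PBS_sham 3. Fewer cells of a type and less RNA per cell cannot be told apart in such samples. Results are therefore given with and without PBS_sham 3.

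**Figure D1:**
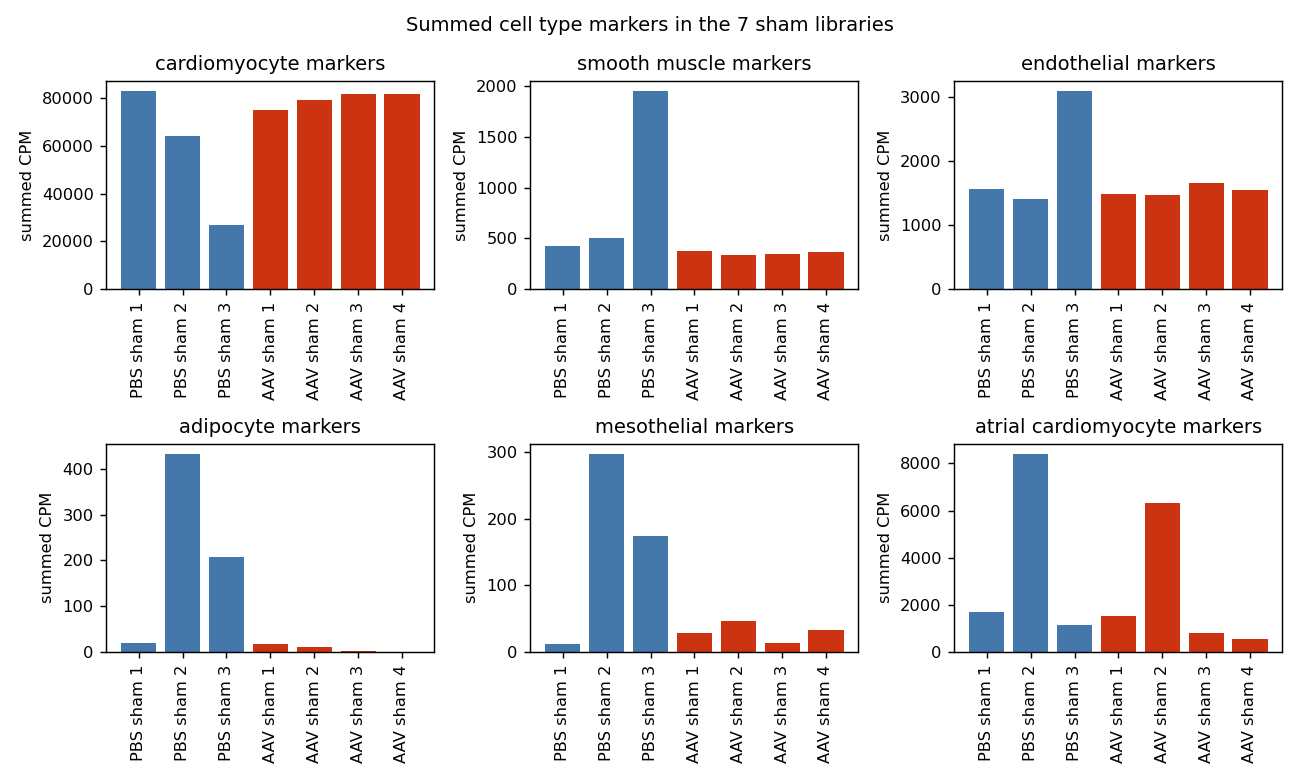
Summed CPM of 6 marker lists (vertical axes, each from 0) in the 3 PBS_sham libraries (blue) and the 4 AAV_sham libraries (red), 1 bar per library. PBS_sham 3 is low in cardiomyocyte and high in smooth muscle and endothelial markers, and PBS_sham 2 and 3 are high in adipocyte and mesothelial markers.

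The delivered gene was examined first. Cpt1a (ENSMUSG00000024900, GRCm38 chr19:3322334-3385733, plus strand) was at 37.4, 50.8 and 68.0 CPM in PBS_sham 1, 2 and 3, and at 88.4, 56.3, 73.3 and 67.4 CPM in AAV_sham 1 to 4. AAV_sham 1 and 3 lay above every control, but AAV_sham 2 and 4 lay below PBS_sham 3, so the groups overlapped. The means were 52.1 ± 15.3 CPM (SD, n = 3) and 71.4 ± 13.4 CPM (SD, n = 4). The difference did not pass the threshold (log2 fold change 0.45, SE 0.22, adjusted p 0.248). Without PBS_sham 3 every vector library lay above both controls, and the difference was 0.69 with an adjusted p of 0.275, again not past it. In the TAC groups the difference was 0.05 (adjusted p 1), with 40.3 to 61.6 CPM in PBS_TAC and 44.8 to 62.7 CPM in AAV_TAC. Whether reads from the vector count towards this entry is not given in the sources used here.

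The other enzymes and carriers of the shuttle showed no called change. Of the 11 genes listed for the carnitine shuttle and malonyl-CoA, all 11 were tested, 8 lay above and 3 below zero, and the median was 0.27. Without PBS_sham 3 that median was 0.13. Cpt2, the inner-membrane transferase, was at 219.8, 161.6 and 44.6 CPM in PBS_sham and 192.0 to 234.3 CPM in AAV_sham (log2 fold change 0.60, adjusted p 0.314). PBS_sham 3 was the lowest library by far, and without it the value was 0.18. Slc25a20, the carrier, had the same layout, with 38.6 CPM in PBS_sham 3 and a difference of 0.56 that became 0.12 without that library. Crat, which forms and splits short acylcarnitines, gave 0.46 and 0.06 in the same order, and Mlycd 0.47 and 0.11. Crot, the peroxisomal transferase, was at 0.24, and Slc22a5, which carries carnitine into the cell, at −0.01 and, without PBS_sham 3, at 0.19.

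Acaca, the carboxylase that also serves fatty acid synthesis, stood out by its spread. It was at 9.87, 28.0 and 19 CPM in PBS_sham 1, 2 and 3 and at 8.40 to 11.3 CPM in AAV_sham. The high values were in the 2 libraries with adipocyte markers, and PBS_sham 1 lay inside the AAV_sham range. The difference of −0.95 (SE 0.25, adjusted p 0.131) was not called, and the part of fat tissue in it was not tested. Acacb, the carboxylase of muscle mitochondria, was at 0.24 (adjusted p 0.363). Cpt1c, the brain form, was at −0.99 (adjusted p 0.187, and −0.26 without PBS_sham 3), with 14.3 CPM in PBS_sham 3 and 3.02 to 6.70 CPM in the other 6 libraries. Cpt1b was listed at only 6.25 to 10.1 CPM (log2 fold change 0.27, adjusted p 0.414). Its exons overlap the readthrough entry Gm44502 on the same strand, which held 0 to 2 counts, and how reads shared by both were counted is not given, so its level is uncertain.

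Across all genes the vector comparison gave few calls. Of 15745 genes tested, 2 were called, both lower in AAV_sham, which is 0.0127% of those tested. At an unadjusted p under 0.05 there were 3262 genes, 933 higher and 2329 lower. Without PBS_sham 3, the number called was 6 of 15901 (0.0377%), with 1 higher (0.00629%) and 5 lower (0.0314%). Both genes of the full comparison were among them. The number of calls rested on the libraries and the tool. Without PBS_sham 1, which leaves PBS_sham 2 and 3 as the controls, 2821 genes were called. DESeq2 called 363 genes and limma voom with sample weights 70, while edgeR on the 7 libraries alone called 0, with 1462 genes at an unadjusted p under 0.05. With library totals in place of TMM factors, 6.69% of genes at that unadjusted level were higher in AAV_sham rather than 28.6%, and the median of all genes was −0.27 rather than −0.03. Each scaling gave 2 calls.

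Banp, which encodes a DNA-binding protein of gene promoters, was the gene with the smallest p. Banp (ENSMUSG00000025316, GRCm38 chr8:121949750-122029258, plus strand) was at 19.6, 22.6 and 23.8 CPM in PBS_sham 1, 2 and 3. It was at 9.58, 10.3, 8.42 and 9.27 CPM in AAV_sham 1 to 4. All vector libraries lay below all controls, PBS_sham 3 included. Banp fell by 1.23 on the log2 scale (SE 0.13, adjusted p 0.00523 by edgeR's quasi-likelihood test), and without PBS_sham 3 by 1.17. The call held with each of the 7 libraries left out in turn and was lost with the 7 sham libraries alone (−1.25, adjusted p 0.305) and without both PBS_sham 2 and 3 (adjusted p 0.067). After TAC, Banp was at 12.6, 11.4 and 11.7 CPM with saline and at 12.4, 8.58, 9.15 and 9.08 CPM with the vector, and those groups overlapped (−0.28, adjusted p 1). The saline sham libraries were thus the high group among the 4. The difference between the arms was 0.95 (SE 0.19, adjusted p 0.424) and did not pass the threshold. The exons of Banp overlap Gm27011 on the opposite strand, which held 0 to 4 counts.

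The CGCG element, the promoter motif that BANP protein binds, was found in 153 of 32851 RefSeq promoters of 300 bases, 0.466% (both strands searched). Of the genes tested, 114 had it. Their median difference was 0.08, with 44 below zero, against −0.02 over the 11169 genes tested that had a RefSeq promoter. None of the 114 was called by edgeR, while 6 were higher and 9 lower at an unadjusted p under 0.05. Of the 11169 genes, 709 were higher and 1618 lower at that level. Below zero lay 38.6% of the 114 and 51.5% of the 11169. Without PBS_sham 3 the median of the 114 was 0.03.

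Ddit3, which encodes the stress-induced transcription factor CHOP, was the second call. Ddit3 (ENSMUSG00000025408, GRCm38 chr10:127290774-127296288, plus strand) was at 27.8, 29.7 and 41.8 CPM in PBS_sham 1, 2 and 3. It was at 17.6, 17.7, 17.1 and 17.2 CPM in AAV_sham 1 to 4, a very narrow range that lay below all controls. Ddit3 fell by 0.93 on the log2 scale (SE 0.12, adjusted p 0.0208 by edgeR), and without PBS_sham 3, the highest control, by 0.73 (adjusted p 0.000705). The call was lost with any 1 of AAV_sham 1, 2, 3 or 4 left out (adjusted p 0.0628 to 0.141) and with the 7 sham libraries alone (adjusted p 0.504), all 30 libraries (0.0921) or the atrial covariate (0.081). In the TAC groups Ddit3 was at 26.6, 26.5 and 26 CPM with saline and at 23.1, 23.2, 21.8 and 23.7 CPM with the vector (−0.20, adjusted p 1). These 4 libraries also lay below their controls, by a smaller distance. The difference between the arms was 0.73 (adjusted p 0.688). The exons of Ddit3 overlap those of Mars, a transfer RNA synthetase gene, on the opposite strand. The kit keeps the strand, but the strand setting of the counting is not given, so the level is uncertain. Mars was at 0.38 (adjusted p 0.211), and at 0.16 without PBS_sham 3.

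**Figure D2:**
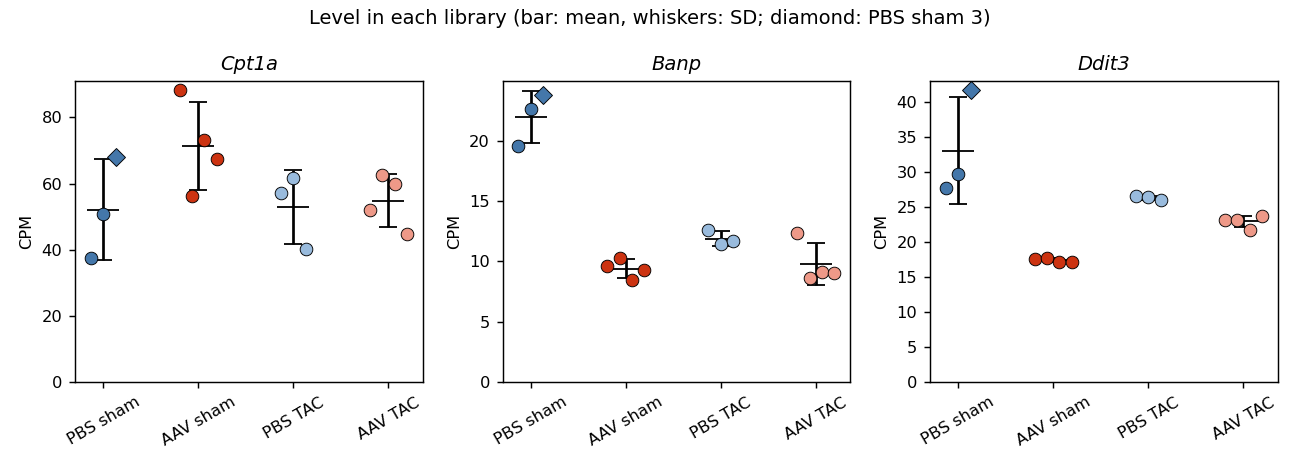
CPM (vertical axes, from 0) of Cpt1a, Banp and Ddit3 in each library of the 4 groups, with the mean as a bar and the SD as whiskers, and PBS_sham 3 as a diamond. Cpt1a overlaps between PBS_sham and AAV_sham, while Banp and Ddit3 are lower in all 4 AAV_sham libraries, at 8.42 to 10.3 and 17.1 to 17.7 CPM.

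Ddit3 belongs to the integrated stress response, the programme in which phosphorylated eIF2-alpha favours translation of Atf4, and Atf4 then drives genes of amino acid synthesis and of stress. Of 20 listed genes tested, Ddit3 was the only one called by edgeR. Of the 20, 15 lay below zero and 5 above, with a median of −0.19. Without PBS_sham 3 the median was −0.27, with 16 below. Atf4 itself was at −0.08 (adjusted p 0.714), with 83.1 to 104.4 CPM in PBS_sham and 80.1 to 92.2 CPM in AAV_sham. Among its targets, Nupr1 was at 7.89, 15.7 and 26.7 CPM in PBS_sham and 3.92 to 7.48 CPM in AAV_sham (−1.63, adjusted p 0.116). Trib3, a pseudokinase, was at 2.55 to 4.66 CPM and 2.02 to 2.52 CPM (−0.78, adjusted p 0.143). Asns, the asparagine synthetase, was at 2.96 to 4.88 CPM and 1.82 to 2.70 CPM (−0.82, adjusted p 0.153). Phgdh, the first enzyme of serine synthesis, was at −1.41 (adjusted p 0.133). For these 4 genes and Ddit3 the vector libraries lay below all controls, which makes 5 of the 20, with 0 above, against 5.32% of all genes. Chac1, another target of this pathway, lay the other way, at 1.88 to 3.05 CPM in PBS_sham and 2.98 to 6.62 CPM in AAV_sham, with a small overlap (0.90, adjusted p 0.161), and at −0.90 in the TAC groups (adjusted p 0.964). None of these 5 targets was called.

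The chaperones and folding enzymes of the endoplasmic reticulum are the other group that stress in this organelle raises. Their promoters are known for the endoplasmic reticulum stress element, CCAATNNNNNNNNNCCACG. It was found in 39 of 32851 RefSeq promoters (0.119%, both strands searched) and in the promoters of 8 of the 18 listed genes that had one (Calr, Canx, Creld2, Dnajc3, Hsp90b1, Hspa5, Pdia6 and Syvn1). A match is a description of the letters only. The promoters of Pdia4 and Sdf2l1, genes whose values also follow, held no match. The promoters of Hspa5, Creld2 and Calr are shown as examples of the element in genes whose values follow, with the element in capitals. They run 5′ to 3′ on the gene's strand, from 250 bases before to 50 bases after the start site (RefSeq, GRCm38.p6). They lie at chr2:34771840-34772139 (plus strand), chr15:88819396-88819695 (plus strand) and chr8:84846882-84847181 (minus strand), and the latter 2 hold the element in reverse.
Hspa5: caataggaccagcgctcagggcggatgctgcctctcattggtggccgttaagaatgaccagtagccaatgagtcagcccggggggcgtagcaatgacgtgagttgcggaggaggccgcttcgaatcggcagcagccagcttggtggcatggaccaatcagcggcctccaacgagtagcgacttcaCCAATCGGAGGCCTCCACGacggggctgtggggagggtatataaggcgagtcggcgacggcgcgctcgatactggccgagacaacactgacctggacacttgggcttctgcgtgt
Creld2: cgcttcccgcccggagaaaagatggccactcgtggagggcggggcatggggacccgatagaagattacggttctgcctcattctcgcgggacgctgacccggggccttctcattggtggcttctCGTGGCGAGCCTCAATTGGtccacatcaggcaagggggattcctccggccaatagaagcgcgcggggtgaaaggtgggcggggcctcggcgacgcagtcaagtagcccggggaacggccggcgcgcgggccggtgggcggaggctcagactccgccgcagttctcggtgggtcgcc
Calr: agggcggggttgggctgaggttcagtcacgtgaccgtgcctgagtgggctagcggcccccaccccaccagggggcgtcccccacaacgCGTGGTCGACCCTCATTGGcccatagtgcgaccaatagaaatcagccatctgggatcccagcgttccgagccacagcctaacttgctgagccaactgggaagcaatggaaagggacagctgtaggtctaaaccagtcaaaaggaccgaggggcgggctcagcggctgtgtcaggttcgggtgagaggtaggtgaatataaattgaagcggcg

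With all 3 controls no chaperone was called. Of 20 genes tested, 16 lay below zero and 4 above, the median was −0.18, and 3 (Edem1, Syvn1 and Sec61b) had all vector libraries below all controls (5.32% of all genes did). The controls differed among themselves. PBS_sham 3 was the lowest of the 7 libraries for Hspa5, at 266.5 CPM, while PBS_sham 1 and 2 had 867.9 and 913.7 CPM and AAV_sham had 699.5 to 802.3 CPM. Hspa5, the main chaperone of the organelle, was therefore at 0.17 with all libraries and at −0.22 without PBS_sham 3 (adjusted p 0.73 and 0.391). Without PBS_sham 3 the median of the 20 genes was −0.42, with 19 below zero, against a median of −0.00 over all genes. In 18 of the 20, all vector libraries lay below both remaining controls, as they did for 8.33% of all genes. An unadjusted p under 0.05 by edgeR was reached by 18, all lower, and 1 was called, Pdia4. Over all 15901 genes of that fit, 1854 (11.7%) reached this level, 994 of them lower.

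Pdia4, a protein disulfide isomerase, was at 51.2 and 74.9 CPM in PBS_sham 1 and 2, 28.6 CPM in PBS_sham 3, and 39.3, 33.0, 34.2 and 34.3 CPM in AAV_sham 1 to 4. It fell by 0.84 without PBS_sham 3 (adjusted p 0.029) and was at −0.55 with it (adjusted p 0.199). Creld2 was at 23.9, 37.3 and 15.4 CPM in PBS_sham and 15.4 to 16.7 CPM in AAV_sham. Its value was −0.94 without PBS_sham 3 (adjusted p 0.0617) and −0.68 with it. Manf, a secreted factor of the same stress response, was at 71.3, 90.3 and 30 CPM in PBS_sham and 42.1 to 48.4 CPM in AAV_sham, and gave −0.83 and −0.49. Sdf2l1, a partner of Hspa5, was at 14.1, 18.9 and 5.19 CPM against 6.66 to 9.20 CPM. Calr, the calcium-binding chaperone, was at 496.7, 519.2 and 309.6 CPM against 380.0 to 401.6 CPM. For these 5 genes PBS_sham 1 and 2 lay above every vector library and PBS_sham 3 below all of them or, for Creld2, level with the lowest.

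The 2 genes with the smallest p among the chaperones with all libraries were Edem1 and Syvn1, which act in the disposal of misfolded proteins. Edem1 was at 17.1, 25.5 and 26.6 CPM against 11.5 to 15.9 CPM (−0.72, adjusted p 0.131). Syvn1 was at 33.2, 49.7 and 37.8 CPM against 26.5 to 31.0 CPM (−0.48, adjusted p 0.131). Xbp1, the transcription factor of the response, was at 93.7, 123.0 and 62.3 CPM against 71.5 to 80.1 CPM. Canx and Sel1l were the exceptions in the layout of PBS_sham 1 and 2, with −0.01 and 0.10 without PBS_sham 3. PBS_sham 2 had the higher level of the 2 controls for most of these genes, and it also carried the adipocyte and mesothelial markers and 145.7 CPM of B lymphocyte markers, against 8.72 to 15.6 CPM in the other 6 libraries. Their part in the result was not tested. With PBS_sham 1 as the only control Hspa5 was at −0.18. In the TAC groups the median of the 20 genes was 0.07, with 6 below zero, and 0 were called.

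**Figure D3:**
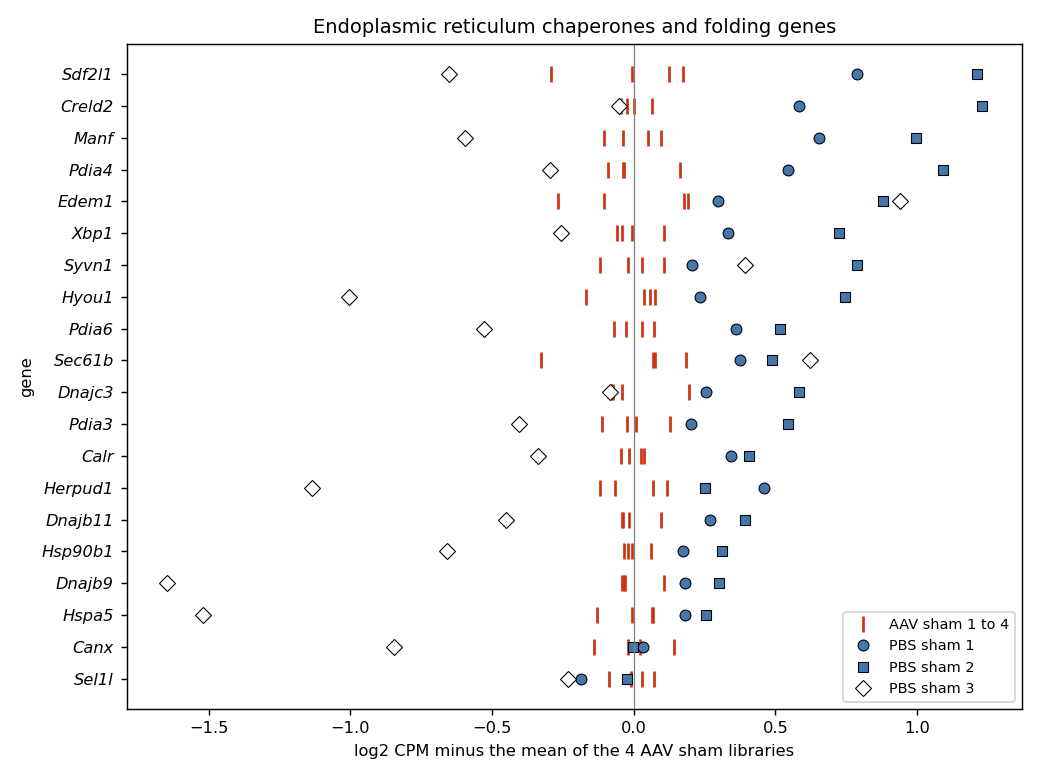
Log2 CPM of 20 endoplasmic reticulum genes in each sham library, minus the mean of the 4 AAV_sham libraries (horizontal axis). Red ticks are AAV_sham libraries, filled blue symbols PBS_sham 1 and 2, and open diamonds PBS_sham 3, which lies to the left for most genes while PBS_sham 1 and 2 lie to the right.

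Without PBS_sham 3, another 3 genes were called beside Banp, Ddit3 and Pdia4. Rin3, which activates small GTPases of endocytosis, was at 31.5, 30.2 and 23.8 CPM in PBS_sham 1, 2 and 3 and 16.1, 11.8, 15.9 and 16.5 CPM in AAV_sham 1 to 4. The groups did not overlap. Rin3 fell by 1.03 without PBS_sham 3 (adjusted p 0.0189), and its value was −0.92 with all libraries (adjusted p 0.0786). Fkbp5, a glucocorticoid-induced co-chaperone, was at 29.6, 40.3 and 17.7 CPM against 18, 15.5, 14.8 and 11.3 CPM, with PBS_sham 3 just under AAV_sham 1. It fell by 1.23 without PBS_sham 3 (adjusted p 0.0195) and was at −0.97 with it (adjusted p 0.131). Kctd12b rose by 0.96 without PBS_sham 3 (adjusted p 0.0195), from 9.26 and 9.53 CPM to 15.9 to 20.1 CPM, but PBS_sham 3 had 21.8 CPM, and with it the value was 0.43 (adjusted p 0.31).

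Several genes were lower with the vector in both arms, which share no library. They were picked after their values had been seen. Fam107a, a stress-responsive actin-binding gene, was at 9.92, 9.86 and 11.7 CPM in PBS_sham and 4.99, 2.70, 3.57 and 2.36 CPM in AAV_sham (−1.61, SE 0.26, adjusted p 0.0786). In the TAC groups it was at 5.56, 9.74 and 7.52 CPM with saline and 2.1, 1.5, 2.27 and 2.50 CPM with the vector and was called there (−1.86, adjusted p 0.0175). The TAC arm had 6 calls (0.0381% of 15745), of which 4 were lower (0.0254%). Rhobtb1 was at 150.3 to 170.0 CPM in PBS_sham and 87.4 to 120.7 CPM in AAV_sham (−0.61, adjusted p 0.133), and fell in the TAC groups by 1.25 (adjusted p 0.0121). Rhobtb1 and Manf overlap exons of a gene on the opposite strand, so their levels carry the same uncertainty as that of Ddit3. The same holds for other genes named here, among them Syvn1, Hadha, Acadvl, Ndufs1, Irf3, C2, Crat, mt-Nd5 and Arntl. Per2, a repressor of the circadian clock, was at 30.5, 37.0 and 74.7 CPM against 14.2 to 24.2 CPM (−1.29, adjusted p 0.131, and −0.79 without PBS_sham 3), and fell in the TAC groups by 2.47 (adjusted p 0.0121). Per2 levels of the vector libraries lay below all controls in both arms, a layout that 4.27% of all genes had in the TAC arm.

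Fkbp5, Tsc22d3 and Noct, of the list of genes driven by the clock or by glucocorticoids, lay likewise. Fkbp5 gave −0.84 in the TAC groups (adjusted p 0.758), with 25.2 to 36.7 CPM with saline and 16.7 to 17.9 CPM with the vector. Tsc22d3, a glucocorticoid target, was at 123.1 to 163.8 CPM in PBS_sham and 87.9 to 115.4 CPM in AAV_sham (−0.43, adjusted p 0.164), and gave −0.70 after TAC (adjusted p 0.199). Noct, a rhythmic phosphatase, was at 59.3 to 59.8 CPM against 43.6 to 49.4 CPM (−0.39, adjusted p 0.131), and gave −0.63 after TAC (adjusted p 0.0609). Over the whole clock output list, 12 of 21 genes lay above zero in the sham arm (median 0.04, 0 called), with 4 genes that had all vector libraries below all controls and 3 that had them above (5.32% and 5.53% of all genes). In the TAC arm 16 of the 21 lay below zero (median −0.49, 0 called). In the core clock list, 0 of 15 genes were called in the sham arm and 3 in the TAC arm (Arntl, Per2 and Ciart). The labels used here give no hour of collection, so time of day and vector cannot be told apart.

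**Figure D4:**
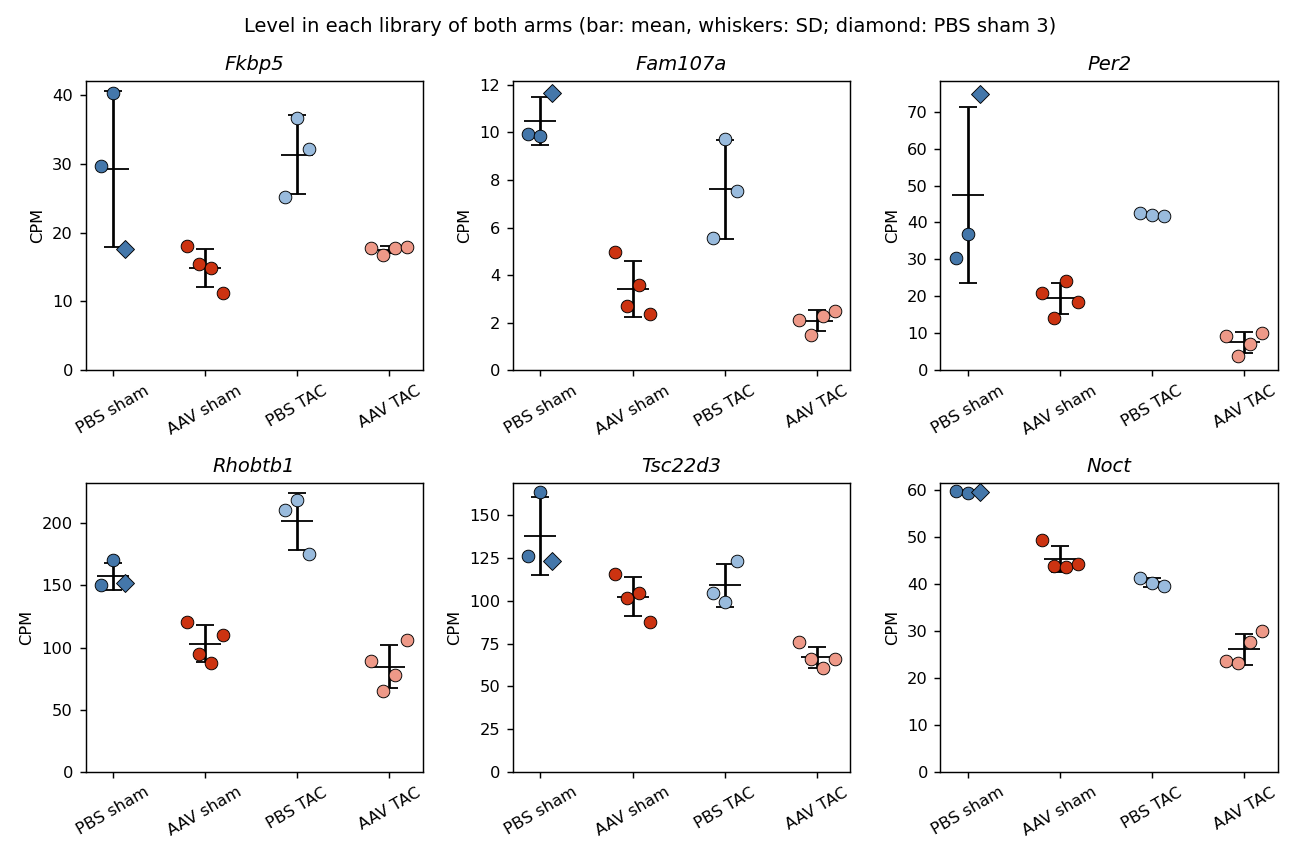
CPM (vertical axes, from 0) of 6 genes in each library of the sham and TAC groups, with the mean as a bar, the SD as whiskers and PBS_sham 3 as a diamond. Vector libraries lie below the saline libraries of their own arm, apart from PBS_sham 3 for Fkbp5, at 17.7 CPM.

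Most lists of fuel-handling genes lay above zero as groups in the full comparison, and the size of that shift moved with PBS_sham 3. None of their genes was called. Of 25 beta-oxidation genes tested 22 lay above zero, with a median of 0.48, against −0.03 over all genes, and without PBS_sham 3 the median was 0.11. Hadha, a subunit of the trifunctional protein, was at 1645, 1293 and 261.5 CPM in PBS_sham and 1503 to 1936 CPM in AAV_sham. Acadvl, the first dehydrogenase of long chains, was at 588.9, 477.2 and 67.0 CPM against 541.8 to 705.6 CPM. In both, PBS_sham 1 lay inside the vector range and PBS_sham 3 far below it. The tricarboxylic acid cycle genes had a median of 0.54, with 22 of 22 above zero, and 0.09 without PBS_sham 3. Ogdh and Dld were at 0.68 and 0.72, and at 0.24 and 0.27 without it. The nuclear respiratory chain genes had a median of 0.29 (65 of 72 above) and 0.02 without PBS_sham 3, with Ndufs1 at 0.68 and 0.22 and Ndufa10 at 0.49 and 0.11. Ketone and branched-chain amino acid genes had 0.52 and 0.13, and glucose genes 0.43 and 0.08. Triglyceride storage and lipolysis genes were mixed, with 13 of 24 above zero (median 0.11). At an unadjusted p under 0.05 by edgeR, 7 of these were lower and 1 higher, against 2329 lower and 933 higher of all 15745 genes. Without PBS_sham 3 the median of the 24 was −0.05, with 16 below zero. The low cardiomyocyte markers of PBS_sham 3 moved with these medians, and their part was not tested.

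Single fuel genes had differences of various sizes, and edgeR called none with or without PBS_sham 3. Ehhadh, a peroxisomal beta-oxidation enzyme, was at 10.7, 9.70 and 8.02 CPM in PBS_sham and 13.7 to 16.1 CPM in AAV_sham, with no overlap (0.67 with and 0.56 without PBS_sham 3, adjusted p 0.131 and 0.278). Ppara, the fatty acid receptor that drives such genes, was at 14.4, 13.1 and 7.34 CPM against 20.5, 13.5, 21.6 and 21.4 CPM, where AAV_sham 2 lay among the controls (0.74 and 0.49). Gpam, which starts triglyceride synthesis, was at 148.6, 117.4 and 59.8 CPM against 175.9 to 235.6 CPM (0.87 and 0.57). Pdp1 and Pdp2, phosphatases that switch pyruvate dehydrogenase on, were at 0.71 and 0.66, and at 0.39 and 0.50 without PBS_sham 3. Bdh1, a ketone body enzyme, was at 96.8, 51.8 and 13.5 CPM against 102.5 to 180.1 CPM (1.31 and 0.85). Cd36, the fatty acid transporter, was at 1471, 1088 and 710.5 CPM against 1414 to 1717 CPM (0.54 and 0.31), and its groups overlapped. Pdk4 was at 132.1 to 275.4 CPM against 188.2 to 421.7 CPM (0.74, adjusted p 0.252, and 0.53 without PBS_sham 3), and Acsl1, which activates fatty acids, gave 0.76 and 0.32. Vldlr, a lipoprotein receptor, gave 0.47 and 0.25. Of 24 listed targets of Ppara, 20 lay above zero (median 0.48), and 17 did without PBS_sham 3 (median 0.14). Their median in the TAC groups was −0.01, and Ehhadh and Ppara were at −0.14 and −0.34. Mitochondrially encoded genes had a median of 0.41, and 0.21 without PBS_sham 3, with mt-Nd5 at 0.58 and 0.43. The mt-Nd4l entry was at 13.7 to 18.1 CPM in PBS_sham and 30.6 to 84.6 CPM in AAV_sham, with no overlap (1.62, adjusted p 0.183, and 1.5 without PBS_sham 3). It varied widely in PBS_TAC, at 78.7, 13.6 and 11.0 CPM. This entry overlaps mt-Nd4 on the same strand, and how shared reads were counted is not given, so its level is uncertain. Pparg, the fat cell relative of Ppara, was at −0.34 and −0.27, and Pnpla3, a lipase of fat and liver, at −1.59 and −1.85 with under 4 CPM in every library. Bcat1, the cytosolic branched-chain transaminase, was at −1.11 and −1.21.

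Most immune lists and the matrix list had medians below zero, none with a gene called by edgeR. The list of inflammatory cytokines and chemokines did not, with 12 genes above and 11 below zero (median 0.02, and 0.04 without PBS_sham 3). The interferon-stimulated genes had a median of −0.40 (42 of 48 below), and 0.05 without PBS_sham 3. Stat2 was at 114.2 CPM in PBS_sham 3 and 24.1 to 27.9 CPM in the other 6 libraries. Herc6 was at 6.25, 7.59 and 13.5 CPM against 3.98 to 4.79 CPM, with no overlap (−1.08, adjusted p 0.131, and −0.68 without PBS_sham 3), and Ifi27l2a at 14.5, 49.0 and 61.3 CPM against 6.30 to 17.2 CPM (−1.81). Irf3 and Tmem173, of the sensing of foreign nucleic acids, were at −0.57 and −0.44, and at −0.22 and −0.20 without PBS_sham 3. The antigen presentation genes had −0.48 (22 of 22 below) and −0.11, with H2-D1 at 651.2 CPM in PBS_sham 3 and 267.3 to 374.4 CPM elsewhere, and Tapbp at −0.38, and −0.20 without it. Of the cytokine list, Cxcl16 was at −0.55, and at −0.34 without PBS_sham 3. Complement and acute phase genes had −0.55 (13 of 13 below) and −0.53, so this median hardly moved without that library. In the TAC groups the medians were 0.14 for interferon-stimulated, 0.06 for nucleic acid sensing and 0.29 for antigen presentation genes. They were −0.22 for the cytokine list, −0.24 for the complement list and −0.14 for the matrix list. Hp, or haptoglobin, was at 8.22, 107.7 and 41.0 CPM in PBS_sham and 0.424 to 3.74 CPM in AAV_sham (−4.60, adjusted p 0.131). Hp was highest in PBS_sham 2 and 3, the libraries with adipocyte markers; C2 was at 13.3 and 5.39 CPM in these and 0.292 to 1.72 CPM in the other 5. Hp in the TAC groups was at −4.45 (adjusted p 1), where PBS_TAC 2 alone had 15 CPM and the other 6 libraries under 0.5 CPM. The 47 matrix genes had a median of −0.44 (38 below), and −0.29 without PBS_sham 3 (38 below). Col1a1 was at 129.3, 204.5 and 176.4 CPM against 89.4 to 138.3 CPM, Col3a1 at 251.5, 444.7 and 361.1 CPM against 199.8 to 296.9 CPM, and both were lowest in AAV_sham 3 and 4. Eln was at 238.5 CPM in PBS_sham 3 and 30.2 to 87.4 CPM in the other 6, and Col16a1 was at −0.93. Fibroblast markers, a list that includes Col1a1 and Col3a1, summed to 1248 to 1823 CPM in PBS_sham and 844.1 to 1458 CPM in AAV_sham. That sum was lowest in AAV_sham 3 and 4, but it is not independent of Col1a1 and Col3a1. The part of fibroblasts in the matrix values was not tested.

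**Figure D5:**
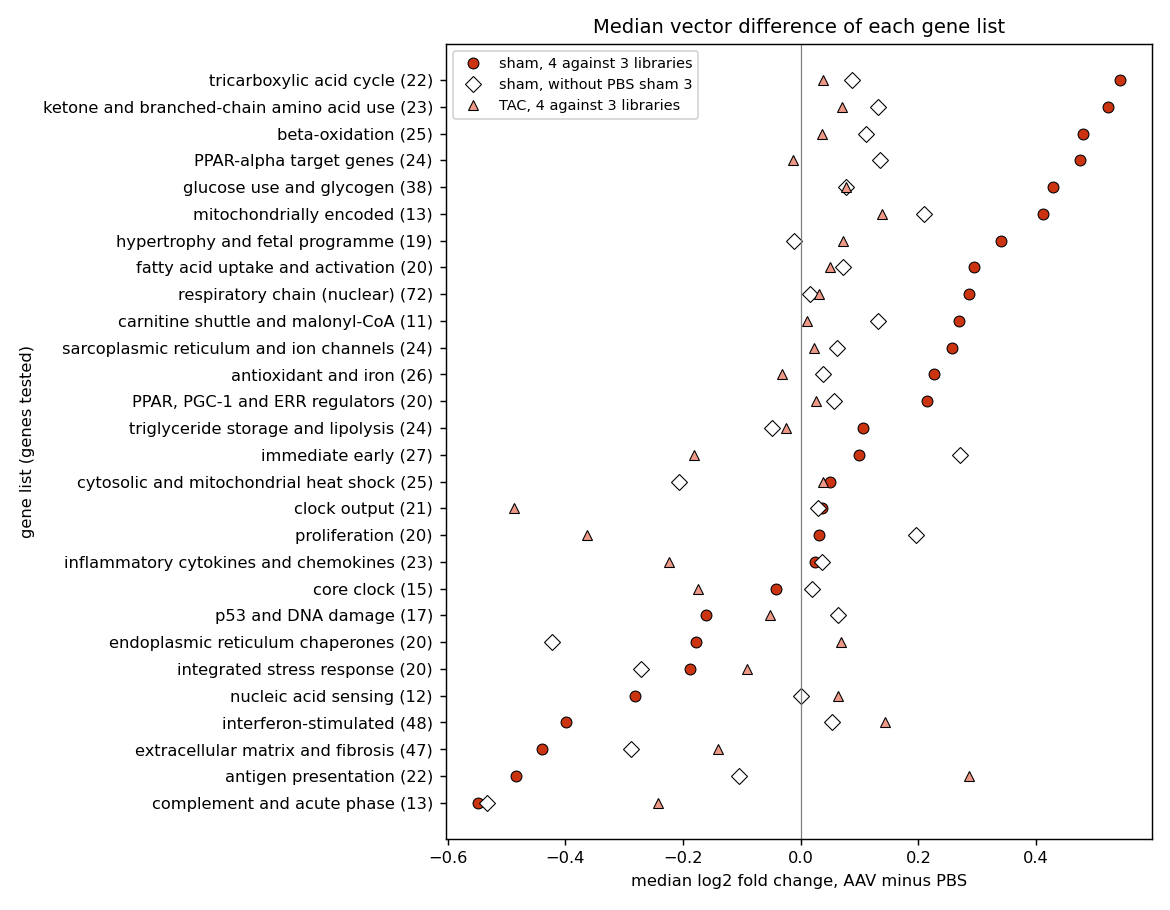
Median log2 fold change of each of 28 gene lists (horizontal axis), with the number of genes tested in brackets. Circles are the sham comparison, open diamonds the same without PBS_sham 3, and triangles the TAC groups; the lists of fuel use move from up to 0.54 towards zero and the chaperones from −0.18 to −0.42 without that library.

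The remaining lists held single genes with no overlap between groups, none of them called. Over all genes, all vector libraries lay above all controls for 5.53% in the sham arm, for 9.98% without PBS_sham 3 and for 4.19% in the TAC arm. Kcnj2, the inward rectifier channel of resting potential, was at 19.7, 18.5 and 8.26 CPM in PBS_sham and 23.5 to 39.9 CPM in AAV_sham (1.02, adjusted p 0.131; 0.71 without PBS_sham 3). Kcna5, a repolarising potassium channel, was at 38.7 to 57.4 CPM against 26.3 to 38.1 CPM (−0.56). Ryr2, the calcium release channel, was at 986.4, 892.5 and 584.6 CPM against 1063 to 1349 CPM (0.53, adjusted p 0.181, and 0.34 without PBS_sham 3). Among early response genes Btg2 was at 64.5 to 81.5 CPM against 103.9 to 165.5 CPM (0.80) and Nr4a1 at 55.2 to 158.7 CPM against 171.3 to 258.0 CPM (0.75), while Gadd45g was at 10.6 to 12.1 CPM against 3.39 to 8.28 CPM (−0.90). Over 27 early response genes 15 lay above zero and 12 below. Fos was at 5.26 to 22.3 CPM against 15.9 to 36.6 CPM and overlapped. Txnrd1, an antioxidant reductase, was at 28.8 to 54.5 CPM against 61.1 to 64.0 CPM (0.50, adjusted p 0.167; 0.27 without PBS_sham 3). Cx3cl1, a chemokine, was at 9.97 to 13.3 CPM against 14.5 to 16.6 CPM (0.39). Nrgn, a calmodulin-binding gene with the third smallest p, was at 11.8, 13 and 19.8 CPM against 5.64 to 7.39 CPM (−1.20, adjusted p 0.0786), and at 0.03 in the TAC groups.

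Other genes had the smallest p of their lists, and none was called by edgeR. Actn1, of the hypertrophy list, was at 127.3 CPM in PBS_sham 3 and 25.2 to 42.5 CPM in the other 6 libraries (−1.18, and −0.36 without it), and Kcnd2, a potassium channel, was at 7.70 CPM there and 18.9 to 37.6 CPM elsewhere (0.74, and 0.37 without it). Of the heat shock list, the mitochondrial chaperone Hspa9 was at 0.54 and 0.17 without PBS_sham 3, and Chordc1 at −0.38 and −0.42. Of the p53 list, Phlda3 was at 15.8 to 19.1 CPM against 9.03 to 14.4 CPM, with no overlap (−0.71, and −0.66 without PBS_sham 3), and Gadd45a at 6.14 to 16.4 CPM against 18.8 to 25.6 CPM, with no overlap (0.81 and 0.47). Csnk1e, a clock kinase, was at −0.35, and at −0.17 without PBS_sham 3. Sod3, an antioxidant enzyme, was at −0.55 and −0.24. The replication genes Mcm2 and Rrm2 were at 0.50 and 0.48 and overlapped between groups.

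The sham and TAC arms were set side by side for genes the sham arm singled out. Of the 3262 genes at an unadjusted p under 0.05 in the sham arm, 120 also reached it in the TAC arm, where 3.19% of all genes did. The same direction in both arms was found for 66.2% of the 3262 genes, for 94 of the 120, and for 58.9% of all genes tested. The test of the difference between arms called 1 gene (0.00635%), Arntl, the activator of the circadian clock. Arntl was at 7.34 to 12.1 CPM in PBS_sham and 7.45 to 12.3 CPM in AAV_sham (0.04, adjusted p 0.922). It was at 3.45, 2.42 and 2.17 CPM in PBS_TAC and 15.7, 19.8, 15.8 and 12.8 CPM in AAV_TAC (2.58, adjusted p 0.000999). The vector difference was 2.54 larger after TAC (SE 0.32, adjusted p 0.0299). Ciart and Spon2, called in the TAC arm, were at 0.14 and −0.12 in the sham arm.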

How the data were processed

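Poly(A) RNA of 30 heart samples was sequenced with a strand-keeping kit, per the labels' protocols. The authors deposited whole-number counts per gene, made with HISAT2 2.1.0 and featureCounts, with Subread 1.5.1 and GRCm38 also named, per the submitters' processing notes; the strand setting is not given in the sources used here. The table has 55487 gene identifiers, and those without a symbol hold 0.00336% of the counts. Groups came from the labels.

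The 14 libraries of the vector experiment were fitted with 1 mean per group by edgeR 4.0.16 (R 4.3.3): TMM, filterByExpr, quasi-likelihood F test, Benjamini-Hochberg over all genes tested, threshold 0.05. The TAC groups lend degrees of freedom. CPM of single genes use the same scaling, while marker sums use TMM factors computed before the low-count filter. On simulated data for the sham comparison (15547 genes, 200 changed), the changed genes had a mean of at least 5 CPM. Of those changed by 1 on the log2 scale 64% were called, and 98% of those changed by 2, with 8 false calls. Genes were simulated independently, with no control library that stood apart from the others. The rates therefore do not cover genes of lower level or the controls compared here.

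The comparison and gene lists were chosen with earlier results of these data known. Named genes were Cpt1a, called genes (up to 12 each way, mean of at least 5 CPM, no overlap), called list members, carnitine shuttle genes and the 2 smallest p of other lists; further genes were picked after their values were seen. A gene that the rule names is not reported here. Positions are from GENCODE M21, promoters from RefSeq. Alternatives were RLE, DESeq2 1.42.0, limma 3.58.1 voom with sample weights, other filters and library sets, a replicate block, an atrial (Myl7) covariate, and each library left out. Robust estimates, a smooth muscle covariate and the loss of PBS_sham 2 and 3 were added after seeing the data. No libraries compared were duplicates (chi-square per degree of freedom at least 6.29). Counting precision covers counting error only.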

Additional observations from a re-analysis of the deposited data

Results flagged for a closer look

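Of 115 sets of AAV_sham values examined, 6 held a library far from the other 3, about the 1 in 20 that chance flags. Ppara was at 13.5 CPM in AAV_sham 2 and 20.5 to 21.6 CPM in the others, and Rin3 at 11.8 CPM in AAV_sham 2 and 15.9 to 16.5 CPM. Sod3, an extracellular antioxidant enzyme, was at 32.8 CPM in AAV_sham 4 and 43.1 to 44.1 CPM in the others, and Atf4 at 80.1 CPM in AAV_sham 4 and 90.2 to 92.1 CPM. Noct was at 49.4 CPM in AAV_sham 1 and 43.6 to 44.2 CPM in the others. Atrial markers summed to 6305 CPM in AAV_sham 2 and 556 to 1522 CPM in the others. Arntl was the gene whose vector effect differed between TAC and sham by the test of that difference, by 2.54 on the log2 scale.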

How the results depend on the processing

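Over 98 genes and the alternatives run, 1681 of 1854 values kept their direction and side of the threshold, 113 passed it where the reported value had not, 11 lost it and 49 changed sign; the cause was not tested. The sham comparison (2 genes called) gave 363 calls with DESeq2, 70 with limma voom and sample weights, 182 with no low-count filter, 171 with all 30 libraries, 0 with the 7 libraries alone, 1 with the atrial covariate, 4 with the smooth muscle covariate and 5 without PBS_sham 2 and 3. The TAC comparison (6 called) gave 35 with DESeq2, 97 with voom and 14 with no filter, and the difference between arms (1 called) gave 16, 13 and 5. Replicate numbers did not pair the samples (correlations of deviations −0.273, 0.179 and −0.161). The replicate block gave 0 sham calls, so Banp (adjusted p 0.141) and Ddit3 (0.206) were not called, with 2188 genes at an unadjusted p under 0.05, and 2 calls for the difference between arms. Leaving out 1 library gave 1 to 2821 sham calls, 1 to 8 TAC calls and 0 to 1 for the difference. Without AAV_sham 2, 3 or 4 the sham count was 1, without AAV_sham 1 it was 3, without PBS_sham 2 it was 5 and without PBS_sham 3 it was 6. Left-out libraries gave Cpt1a 0.27 to 0.69, Arntl −0.12 to 0.26, Atf4 −0.16 to 0.017, Canx −0.012 to 0.38, Ciart −0.044 to 0.31, Hspa5 −0.22 to 0.44, Slc22a5 −0.10 to 0.19, Spon2 −0.30 to 0.072 and Stat2 −1.41 to 0.030.

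With the smooth muscle covariate the sign changed for Cpt1c (0.11), Cpt2 (−0.12), Crat (−0.17), Dld (−0.068), H2-D1 (0.019), Hspa9 (−0.069), Mlycd (−0.11), Ndufa10 (−0.18), Ndufs1 (−0.13), Ogdh (−0.062), Slc22a5 (0.33), Slc25a20 (−0.17), Arntl (−0.22), Hspa5 (−0.46), Canx (−0.11), Acadvl (−0.20), Hadha (−0.14) and Stat2 (0.38). Without PBS_sham 2 and 3 it changed for C2 (0.25), Cpt1c (0.43), Cpt2 (−0.023), Crat (−0.066), Cxcl16 (0.048), H2-D1 (0.053), Mlycd (−0.0542), Ndufa10 (−0.040), Slc22a5 (0.19), Slc25a20 (−0.082), Hspa5 (−0.18), Canx (−0.024) and Stat2 (0.14). Cpt1a kept its sign in these 2 settings, at 0.85 with the smooth muscle covariate (adjusted p 0.167 by edgeR) and 0.94 without PBS_sham 2 and 3. With voom Slc22a5 was at 0.20, Arntl at −0.25 and Hspa5 at −0.20. Slc22a5 was at 0.039 with the atrial covariate and 0.0070 with no filter, and Arntl at −0.0086 with a mean of at least 5 CPM. Depth limits genes of few counts, such as Cpt1b with 114 to 179, whose level is also uncertain because of its overlap with Gm44502.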
